A study of Mus musculus with 8 samples.

Results

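Enamel organs of mouse first molars were compared between the secretory stage at postnatal day 5 (P5) and the maturation stage at postnatal day 12 (P12). The genes described here carry inorganic phosphate (Pi) across membranes or make and break down pyrophosphate (PPi): Slc34a1, Slc34a2, Slc20a1, Slc20a2, Xpr1, Enpp1, Alpl and Phospho1. They were chosen by name from the deposited count table, and 8 of the 9 names sought had a row among its 54532 genes. The name Pit1 had none, and RefSeq gives it as a synonym of Pou1f1 only, a pituitary transcription factor that was not counted as a member. The phosphate carrier PiT1 is the product of Slc20a1.

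All animals were wt C57BL/6 pups with no treatment. RNA was taken from first molars after the soft tissue of the pulp chamber had been removed, and each library was a pool of 5 pups, with n = 4 libraries at P5 (numbered 1, 3, 4 and 5) and n = 4 at P12 (numbered 1 to 4). Total counts were between 16574548 and 22013456 per library, so that the floor of 3 counts lay between 0.136 and 0.181 CPM, counting error only. Values are normalized counts, in which every library is brought to the same effective size, unless a scale per kilobase is named.

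Enamel crystals are calcium phosphate, and ameloblasts pass both ions from the blood side to the matrix. Na+/Pi cotransporters of the SLC34 and SLC20 families bring Pi into cells, and XPR1 is the known exporter of Pi from them. PPi outside cells inhibits crystal growth. ENPP1 makes it from ATP, the ANK protein (Ank) delivers it or its precursor ATP from cells, tissue-nonspecific alkaline phosphatase (Alpl) splits it into Pi, and PHOSPHO1 frees Pi from phosphocholine inside matrix vesicles.

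The libraries carried the markers of their stages and also RNA of other cells. All 4 secretory ameloblast markers tested were lower at P12 and all 5 maturation markers were higher. The summed level of the maturation markers was 12880.2 in P5 library 5 against 36789 to 44228 in the other P5 libraries, and 356963 to 482565 at P12, where library 4 was highest. P12 library 4 was also the highest P12 library for the summed secretory markers, with 621683 against 237041 to 433633 in the others. Oral mucosa keratins (4 of 4 higher) summed to 440.3 to 861 at P5 and 19524 to 31165 in P12 libraries 1 to 3, against 3298 in P12 library 4. Odontoblast and osteoblast markers (3 of 7 higher, 1 lower) summed to 1025570.0 to 1222960.0 at P5 and 873489 to 1083660.0 at P12. Stratum intermedium markers (2 of 5 higher, 2 lower) summed to 25679 to 31675 at P5 and 13084 to 18913 at P12. Osteoclast markers (4 of 4 tested higher) summed to 1075 to 1873 and 3319 to 7887, endothelial markers (4 of 4 higher) to 2107 to 2532 and 4061 to 4324, and macrophage markers (3 of 4 higher) to 1347 to 1924 and 1991 to 2703. Calcr, an osteoclast marker with too few counts to be tested, went the other way, with means of 11.1 at P5 and 4.48 at P12. None of these listed genes had a mean of 0 at either age. Stage and cell mixture cannot be told apart in pooled tissue, where more cells of a type and more RNA per cell give the same count, and the part of these other cells in the results below was not tested.

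Of the 8 genes, 7 passed the filter on low counts, and 5 of these 7 were higher at P12 (Slc34a2, Xpr1, Enpp1, Alpl and Phospho1), none was lower, and Slc20a1 and Slc20a2 were not called. The quasi-likelihood test of edgeR was adjusted by Benjamini-Hochberg over all 16440 genes tested, and at a threshold of 0.05 it called 28.8% of all genes higher and 28.4% lower, 57.2% in either direction. The same 5 of the 7 tested genes had every P12 library above every P5 library, which was so for 26.0% of all genes tested, while 26.6% had every P12 library below every P5 library. The median log2 fold change was 1.12 over the 7 genes and 0.01 over all genes. Scaling by the total count moved the median of all genes to 0.38, with 8885 genes higher and 2330 lower in place of 4735 and 4676. All 7 members were then called higher, and changes below are given relative to the TMM scaling.

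**Figure D1:**
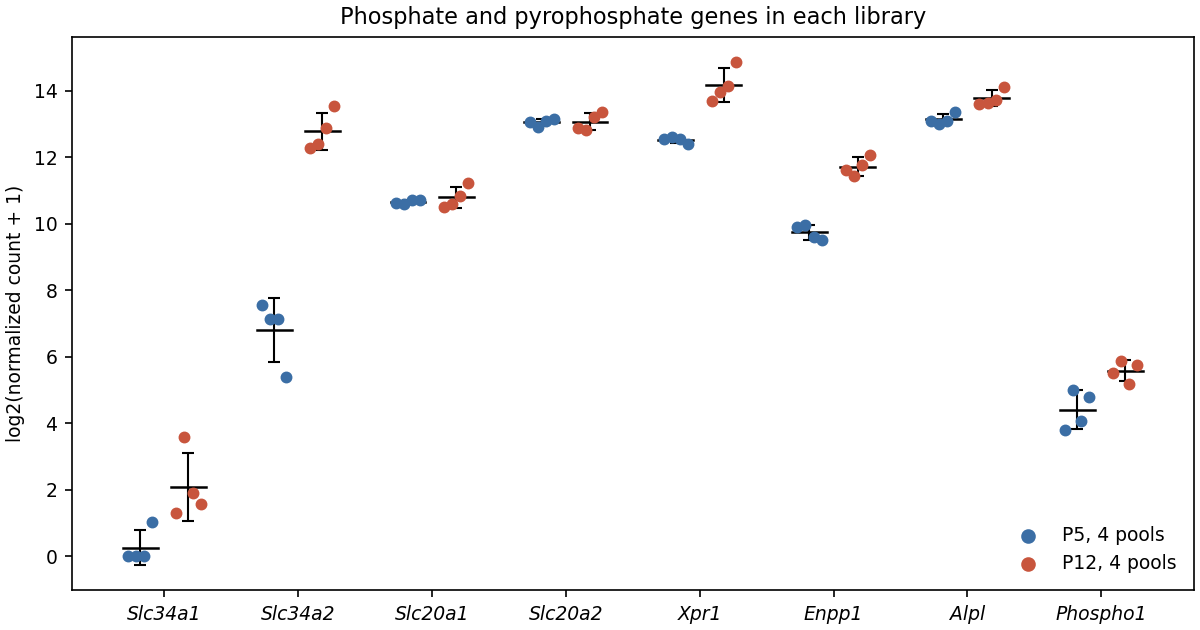
Level of each of the 8 genes in each library, as log2 of the normalized count plus 1 on the vertical axis, with P5 and P12 libraries side by side, the black line at the mean of 4 libraries and the bar showing 1 SD. The P12 points lie above all P5 points for Slc34a2, Xpr1, Enpp1, Alpl, Phospho1 and Slc34a1, and the groups overlap for Slc20a1 and Slc20a2.

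**Figure D2:**
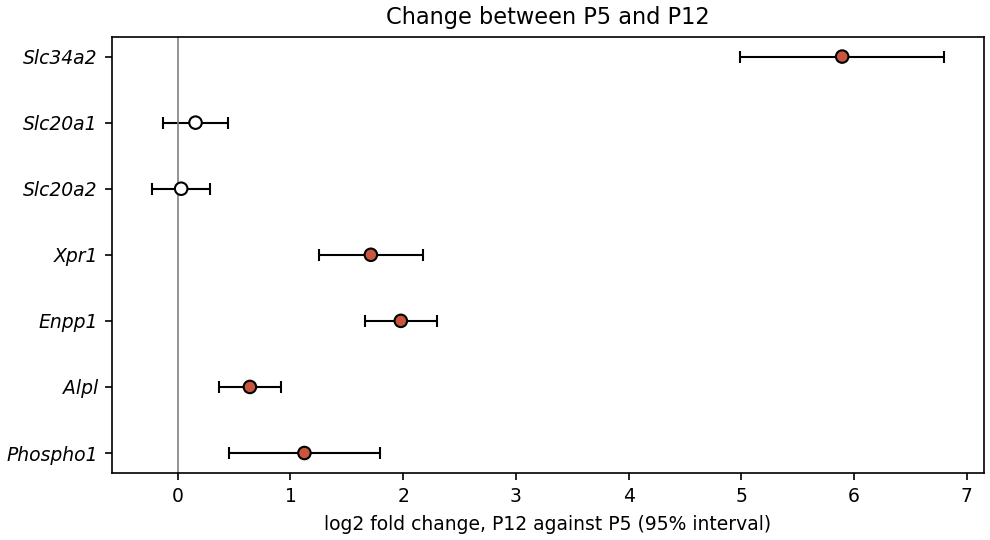
Log2 fold change of P12 over P5 for the 7 tested genes on the horizontal axis, with 95% intervals as bars and filled symbols where the adjusted p was under 0.05. Slc34a2 stands at 5.90, Enpp1, Xpr1, Phospho1 and Alpl between 1.98 and 0.64, and the intervals of Slc20a1 and Slc20a2 include 0.

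Slc34a2 (ENSMUSG00000029188, chr5:53038081-53071664, plus strand, GRCm38) encodes NaPi-IIb, the Na+/Pi cotransporter known from the apical membrane of intestinal and lung epithelium. In the order of their numbers the P5 libraries held 189, 139.7, 138 and 41.3 normalized counts of it, and the P12 libraries held 5009.8, 5441, 7586 and 11847. The ages were far apart in every library, with P5 library 5 lowest and P12 library 4 highest. The mean was 127 ± 61.9 at P5 and 7471 ± 3128 at P12 (SD, n = 4 each), which gave a log2 fold change of 5.90 (SE 0.41, 95% interval 4.99 to 6.80, adjusted p = 4.3e-07 by edgeR), or 59.5-fold. By log2 fold change it was number 33 of the 16440 genes. It was number 3 of the 275 tested protein-coding genes with a symbol of the same form as Slc34a2, which leaves out names such as Slc9a3r1. P5 library 5 and P12 library 4 were also the extremes of the summed maturation markers, and without both the log2 fold change was 5.27 (adjusted p = 9.0e-12 by edgeR). P12 library 4 was the highest P12 library for the summed secretory markers too.

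The 250 bases before the RefSeq start of Slc34a2 are shown with those of Xpr1 and Enpp1, which were higher as well, and of Slc20a1, whose level was not called changed (RefSeq, GRCm38.p6, 5′ to 3′ on the strand of the gene). Capitals mark the motifs searched on both strands, the GC box GGGCGG, the CCAAT box CCAAT, the TATA box TATAAA and the E-box CACGTG. The windows are chr5:53049103-53049352 (plus strand) for Slc34a2, chr1:155417445-155417694 (minus strand) for Xpr1, chr10:24712160-24712409 (minus strand) for Enpp1 and chr2:129198523-129198772 (plus strand) for the first of the starts of Slc20a1.
Slc34a2: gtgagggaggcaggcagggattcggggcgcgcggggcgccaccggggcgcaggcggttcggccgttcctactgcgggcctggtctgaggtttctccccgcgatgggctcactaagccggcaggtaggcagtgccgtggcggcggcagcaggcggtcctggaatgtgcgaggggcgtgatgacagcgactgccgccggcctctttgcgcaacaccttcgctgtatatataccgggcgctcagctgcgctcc
Xpr1: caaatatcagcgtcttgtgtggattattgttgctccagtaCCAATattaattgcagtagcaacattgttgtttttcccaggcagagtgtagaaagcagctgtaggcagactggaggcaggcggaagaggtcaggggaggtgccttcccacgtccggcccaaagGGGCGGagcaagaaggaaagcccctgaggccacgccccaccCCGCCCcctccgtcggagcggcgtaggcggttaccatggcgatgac
Enpp1: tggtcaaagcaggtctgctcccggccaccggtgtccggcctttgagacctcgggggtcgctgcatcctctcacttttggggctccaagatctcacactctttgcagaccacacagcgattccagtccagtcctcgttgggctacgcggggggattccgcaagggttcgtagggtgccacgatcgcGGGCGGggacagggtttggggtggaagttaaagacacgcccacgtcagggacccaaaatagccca
Slc20a1: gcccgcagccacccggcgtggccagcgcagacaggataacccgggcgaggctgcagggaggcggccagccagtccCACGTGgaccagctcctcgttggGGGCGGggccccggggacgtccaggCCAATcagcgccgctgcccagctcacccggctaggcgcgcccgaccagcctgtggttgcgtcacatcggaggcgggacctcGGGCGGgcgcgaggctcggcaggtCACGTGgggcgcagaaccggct
The Slc34a2 window held none of the motifs as spelled. Xpr1 had 2 GC boxes and 1 CCAAT box, Enpp1 had 1 GC box, and Slc20a1 had 2 GC boxes, 1 CCAAT box and 2 E-boxes. Among the 32851 RefSeq promoter windows of the same length, 32.7% held a GC box, 33.8% a CCAAT box, 12.4% a TATA box and 6.02% an E-box, and these matches describe letters in the windows, not sites of binding. A promoter was matched for 7 of the 8 genes. The start of Slc34a2 used by RefSeq lies inside the interval that the count table gives to the gene.

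Slc34a1 (ENSMUSG00000021490, chr13:55398187-55415592, plus strand), the NaPi-IIa carrier of the kidney's proximal tubule, had too few counts to pass the filter on low counts. It had 0, 0, 0 and 1 counts in the P5 libraries and 2, 13, 3 and 2 in the P12 libraries. All P12 libraries lay above all P5 libraries, which was so for 26.0% of the genes that were tested, but 13 of the 20 P12 counts came from library 2. Over the pooled counts the P12 rate was 14.6 times the P5 rate, with an exact 95% interval of 2.34 to 605 that covers counting error only. In the fit with no filter the log2 fold change was 3.43 (SE 1.21, adjusted p = 0.031 by edgeR over 31604 genes), which rests on the same few counts. Part of its exonic sequence, 11.7%, is shared with Pfn3, which had no counts. Slc34a3, the remaining SLC34 gene and also a renal carrier, had no counts at P5, where the floor is 3 counts per library, and was seen in P12 libraries 1 and 2 only, at 2.20 and 1.69 normalized counts.

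Slc20a1 and Slc20a2 encode PiT1 and PiT2, Na+/Pi cotransporters found in most cell types. Slc20a1 (ENSMUSG00000027397, chr2:129198764-129211616, plus strand) gave 1565, 1563, 1668 and 1686 normalized counts at P5, against 1458, 1553, 1830.1 and 2396 at P12. The groups overlapped, with P12 libraries on both sides of the P5 libraries. The log2 fold change was 0.16 (SE 0.13, 95% interval -0.13 to 0.45, adjusted p = 0.33 by edgeR), on means of 1620.3 ± 65.7 and 1809 ± 421 (SD, n = 4), and it was -0.01 without P12 library 4. Of its exonic bases 13.1% are shared with antisense transcripts, whose reads cannot be told apart if the counting ignored strand.

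Slc20a2 (ENSMUSG00000037656, chr8:22476788-22569612, plus strand) gave 8537, 7702, 8675 and 9132 normalized counts at P5, against 7561, 7219, 9476 and 10517 at P12. These groups overlapped too, and P12 library 4 was again the highest of all. The log2 fold change was 0.03 (SE 0.12, 95% interval -0.23 to 0.29, adjusted p = 0.84 by edgeR), on means of 8512 ± 597 and 8693 ± 1570.0 (SD, n = 4). The intervals of both SLC20 genes leave out a change of 1 log2 unit in either direction. When libraries were scaled by total count both were called higher, Slc20a1 by 0.52 (adjusted p = 0.0017) and Slc20a2 by 0.40 (adjusted p = 0.0054 by edgeR), where the median of all genes was 0.38.

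The shares of the Na+/Pi cotransporter genes in their summed RNA counts differed between the ages. Counts of the 5 genes of both families were divided by gene length as the table gives it, and each gene's share of their sum was taken within a library. In the P5 libraries, in order, Slc34a2 made up 2.23%, 1.80%, 1.60% and 0.463% of the sum, and in the P12 libraries 40.3%, 42.9%, 45.0% and 52.7%. It was small in all P5 libraries, and in the P12 libraries its range met that of Slc20a2, which was 37.7% to 49.1%. In order, Slc20a2 held 49.1%, 45.9%, 45.3% and 37.7% in the P12 libraries, so that Slc34a2 held more only in P12 library 4. The mean share of Slc34a2 went from 1.52% ± 0.75 to 45.2% ± 5.33, that of Slc20a2 from 81.2% ± 1.01 to 44.5% ± 4.82, and that of Slc20a1 from 17.3% ± 0.65 to 10.2% ± 0.68 (SD, n = 4). Each difference had p = 0.0286 in a two-sided exact permutation test (adjusted p = 0.0286 over 3 shares), the smallest p that 4 against 4 libraries allow. The 3 shares make up nearly the whole sum within a library, so the 3 tests are not independent. The summed level per kilobase was 1685 ± 99.1 at P5 and 3214 ± 940 at P12, 1.91 times as high. A share can fall without a fall in the gene's own count, as for the SLC20 genes here.

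The exon length chosen changes the size of these shares. The table's length counts all annotated exonic bases. With the longest coding transcript in its place, a choice added after seeing the data, the share of Slc34a2 was 1.06% at P5 and 36.5% at P12, and the sum was 2906 at P5 and 4774 at P12, 1.64 times as high. At P12 Slc34a2 then held 31.9% to 43.6% and Slc20a2 45.3% to 56.4%, ranges that no longer met. With counts not divided by length their mean shares at P12 were 40.5% and 49.3%.

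**Figure D3:**
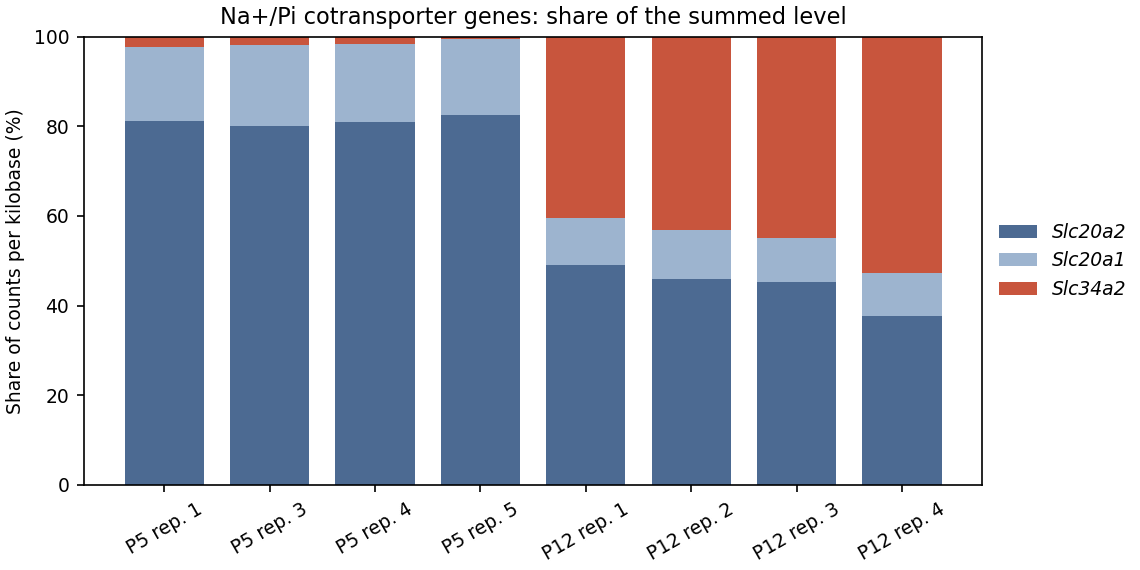
Share of each Na+/Pi cotransporter gene in the summed counts per kilobase of the 5 SLC34 and SLC20 genes, in percent on the vertical axis, as 1 stacked bar for each of the 8 libraries. Slc34a2 fills 0.463% to 2.23% of the P5 bars and 40.3% to 52.7% of the P12 bars.

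Xpr1 (ENSMUSG00000026469, chr1:155275701-155417415, minus strand), the Pi exporter and receptor of xenotropic and polytropic retroviruses, had normalized counts of 6046, 6191, 5993 and 5365 at P5. At P12 they were 13218, 16013, 18209.5 and 29926. Every P12 library was above every P5 library, and P12 library 4 was well above the other 3. The mean was 5899 ± 365 at P5 and 19342 ± 7346 at P12 (SD, n = 4), for a log2 fold change of 1.71 (SE 0.21, 95% interval 1.25 to 2.17, adjusted p = 3.6e-05 by edgeR), or 3.28-fold. Without P12 library 4 it was 1.42 (adjusted p = 8.0e-08 by edgeR).

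XPR1 is known to bind inositol pyrophosphates through its SPX domain, and genes for enzymes that make or remove these signals were therefore listed. Of 9 listed genes 8 were tested, and 4 were lower at P12, with a median log2 fold change of -0.19. With TMM scaling and the filter on low counts none was higher by edgeR, also at an unadjusted p under 0.05, and none by DESeq2 or limma-voom. The balance depended on the scaling, since with total count scaling 2 genes were higher and 1 was lower, and with no filter 1 was higher and 4 were lower. Nudt4, a diphosphoinositol polyphosphate phosphohydrolase, went from 11076 ± 249 to 7503 ± 827 (log2 fold change -0.56, adjusted p = 1.5e-04 by edgeR). For the related Nudt11 the log2 fold change was -0.55 (adjusted p = 0.010), and the kinases Ip6k1 and Ppip5k1 had -0.25 (adjusted p = 0.0044) and -0.35 (adjusted p = 0.0045 by edgeR). With total count scaling Ip6k1 and Ppip5k1 stood at 0.12 and 0.02 and neither they nor Nudt11 were called.

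Enpp1 (ENSMUSG00000037370, chr10:24637914-24712159, minus strand), the ectoenzyme that forms PPi from ATP, gave 964, 1001, 779 and 730.3 normalized counts at P5, against 3121, 2760.0, 3496 and 4323 at P12. The lowest P12 library had more than the highest P5 library by a wide margin. Means were 869 ± 134 and 3425 ± 669.9 (SD, n = 4), and the log2 fold change was 1.98 (SE 0.15, 95% interval 1.66 to 2.30, adjusted p = 6.4e-07 by edgeR), or 3.94-fold.

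Alpl (ENSMUSG00000028766, chr4:137741733-137796384, minus strand), the alkaline phosphatase that hydrolyses PPi, had normalized counts of 8717, 8215, 8766 and 10582 at P5. At P12 they were 12473, 12669, 13581 and 17826. The groups did not overlap, and P5 library 5 was the nearest to the P12 libraries. With means of 9070.1 ± 1038 and 14137 ± 2506 (SD, n = 4), the log2 fold change was 0.64 (SE 0.12, 95% interval 0.37 to 0.91, adjusted p = 0.0010 by edgeR), or 1.56-fold. Odontoblasts and osteoblasts express Alpl as well. Of their markers Ibsp (log2 fold change 1.77), Runx2 (0.73) and Sp7 (0.43) were higher and Col1a2 (-0.36) was lower by edgeR. Of the stratum intermedium markers Hes1 (0.38) and Nectin1 (0.17) were higher, Jag2 (-1.43) and Krt17 (-0.94) were lower, and Notch1 was not called. The part of all these cells in the Alpl result was not tested.

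Phospho1 (ENSMUSG00000050860, chr11:95824499-95832140, plus strand), the matrix vesicle phosphatase, was low at both ages. P5 libraries gave 12.9, 31.3, 15.8 and 26.5 normalized counts, against 44.7, 58.2, 35.2 and 53.2 in P12 libraries. The groups did not overlap, but P5 library 3 and P12 library 3 lay close together. The mean of 47.8 ± 10.1 at P12 against 21.6 ± 8.71 (SD, n = 4) gave a log2 fold change of 1.12 (SE 0.31, 95% interval 0.45 to 1.80, adjusted p = 0.0082 by edgeR), or 2.18-fold. These counts are uncertain, because 89.6% of its exonic bases are shared with Abi3 on the opposite strand and Zfp652 on the same strand. The log2 fold change of Abi3 was 0.51 (adjusted p = 0.14) and that of Zfp652 -0.39 (adjusted p = 9.5e-04 by edgeR), and their part in the Phospho1 counts was not tested.

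Ank, the partner of Enpp1 in PPi supply, was lower at P12. P5 libraries gave 1621, 1594, 1642 and 1869 normalized counts, against 1343, 1206, 1083 and 1043 in P12 libraries. All P12 libraries were below all P5 libraries, and the log2 fold change was -0.52 (SE 0.09, adjusted p = 3.7e-04 by edgeR). That call was lost with total count scaling, where the value was -0.15 (adjusted p = 0.22).

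Ratios of counts within a library do not depend on how libraries are scaled. The log2 ratio of Enpp1 to Ank, each count increased by 1, was -0.75, -0.67, -1.07 and -1.35 in the P5 libraries and 1.22, 1.19, 1.69 and 2.05 in the P12 libraries. The ratio was below 0 in every P5 library and above 0 in every P12 library. Per kilobase, the mean level of Enpp1 was 84.7 and that of Ank 466 at P5, and at P12 they were 334 and 324. The difference of the mean log2 ratios was 2.50 (p = 0.0286, two-sided exact permutation test, adjusted p = 0.0429 over 6 ratios). Enpp1 was higher and Ank lower in every P12 library, so the ratio had to separate the ages. This p was therefore fixed by those values and is no further support. The log2 ratio of Alpl to Enpp1 was 3.17, 3.04, 3.49 and 3.86 at P5, and at P12 it ranged from 1.96 to 2.20, which as a linear ratio of counts of the PPi-splitting to the PPi-making enzyme is 10.5 and 4.14 on average. All P12 values lay below all P5 values, with a difference of -1.34 (exact permutation p = 0.0286, adjusted p = 0.0429).

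Among the carriers, the log2 ratio of Xpr1 to Slc20a2 was -0.50, -0.31, -0.53 and -0.77 at P5 and 0.81, 1.15, 0.94 and 1.51 at P12. It was below 0 in each P5 library and above 0 in each P12 library, a difference of 1.63 (exact permutation p = 0.0286, adjusted p = 0.0429). The log2 ratio of Slc34a2 to Slc20a2 moved from -6.24 ± 1.03 to -0.29 ± 0.33 (SD, n = 4), with the same p. The ratios of Slc20a1 to Slc20a2 (difference 0.12, exact permutation p = 0.143, adjusted p = 0.171) and of Phospho1 to Alpl (difference 0.52, p = 0.171, adjusted p = 0.171) were not called. The last of these rests on the uncertain Phospho1 counts. These ratios are not divided by length, so they compare the ages and not the amounts of both partners.

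**Figure D4:**
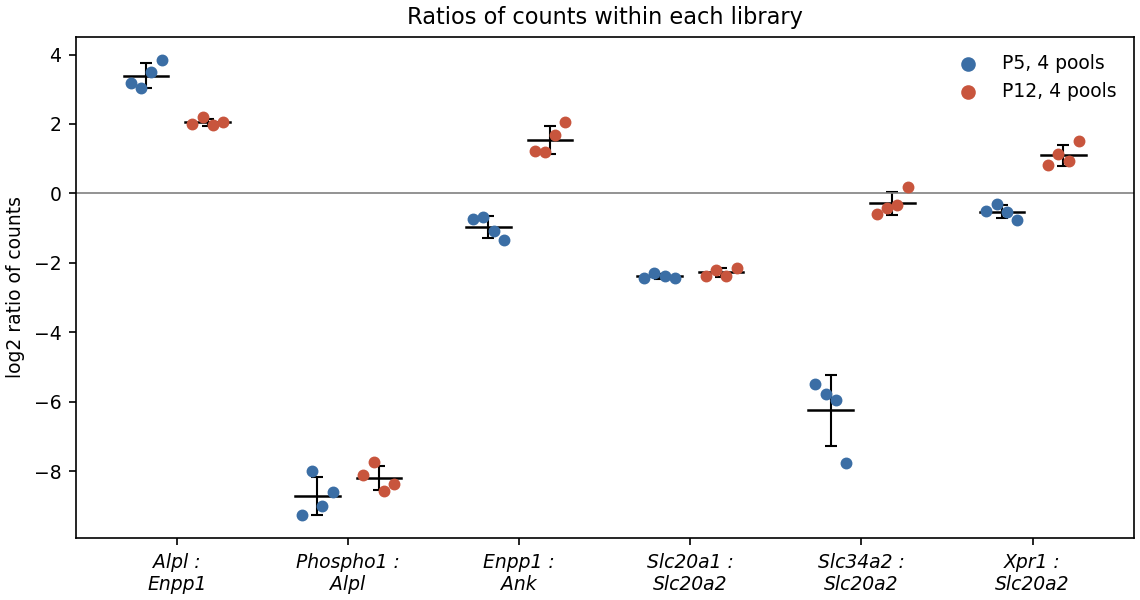
Log2 ratio of the counts of each of 6 gene pairs on the vertical axis, with 1 dot per library, P5 and P12 side by side, and the mean with 1 SD. The ages are separate for Alpl to Enpp1, Enpp1 to Ank, Slc34a2 to Slc20a2 and Xpr1 to Slc20a2, and overlap for Slc20a1 to Slc20a2 and Phospho1 to Alpl.

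The order of the genes by level, as normalized counts per kilobase of annotated exon, differed between the ages. At P5 Alpl led with a mean of 2249 (range 2037 to 2624), ahead of Slc20a2 with 1369 (1239 to 1469). Xpr1 with 330 (300 to 346) and Slc20a1 with 290 (280 to 302) per kilobase followed and overlapped each other. Enpp1 stood at 84.7 (71.2 to 97.6) per kilobase. Slc34a2 at 25.4 (8.23 to 37.7) and Phospho1 at 10.7 (6.34 to 15.4) overlapped at the bottom, above Slc34a1.

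At P12 the per-kilobase level of Alpl, 3505 (3093 to 4420), was again above all others in every library. Slc34a2 with 1490 (999 to 2363), Slc20a2 with 1399 (1161 to 1692) and Xpr1 with 1082 (739 to 1674) per kilobase came next, and their ranges overlapped. Within libraries Slc20a2 was above Slc34a2 in P12 libraries 1, 2 and 3 (1216 against 999, 1161 against 1085 and 1524 against 1513). Only in P12 library 4 was Slc34a2 above it, with 2363 against 1692. Enpp1 with 334 (269 to 421) and Slc20a1 with 324 (261 to 429) per kilobase overlapped below Slc34a2, Slc20a2 and Xpr1, and Phospho1 reached 23.6 (17.4 to 28.7). With the longest coding transcript as length, Xpr1 came second with 2582 per kilobase, because its annotated exons span 17880 bases against 7492 in that transcript. Slc20a2 with 2438 and Slc34a2 with 1789 per kilobase then followed it, and their ranges still overlapped. At P5 Xpr1 (716 to 826) and Slc20a1 (471 to 508) did not overlap with that length.

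Each gene was also set beside the protein-coding genes whose profile over the 8 libraries was most like its own, by the root mean square difference of centred log2 levels. The nearest to Slc34a2 were Myom3 (0.36), Ptchd4 (0.38) and Gpr176 (0.52). Their P5 means were 7.32, 9.42 and 38.4 normalized counts, and they met the required mean of 100 over all libraries through P12. For Xpr1 they were Trio (0.12), Timp3 (0.12) and Hip1r (0.13), and for Enpp1 Rnf144a (0.11), Kidins220 (0.12) and the K+ channel gene Kcnn4 (0.14). The profiles nearest to Alpl were Prickle2, St5 and Tmem19 (0.07 each), and those nearest to Phospho1 were Slit1 (0.23), Nr4a2 (0.25) and Ptprt (0.26). Nr4a2 and Ptprt were also below that minimum at P5, with means of 81.7 and 85.4. For the SLC20 genes, which were not called, they were Fh1 (0.04), Nfyb (0.06) and Chd1 (0.06) beside Slc20a1, and Prdm4, Nmnat1 and Idh3b (0.08 each) beside Slc20a2. These values describe 8 libraries of 2 ages, and genes that differ between the ages share that difference.

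Other genes of Pi and PPi handling were read from 7 further lists with 70 names. Of the 55 that were tested 23 were higher, 17 were lower and 15 were not called, with a median log2 fold change of 0.09. Over all genes tested, 28.8% were higher and 28.4% lower, and the median was 0.01.

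**Figure D5:**
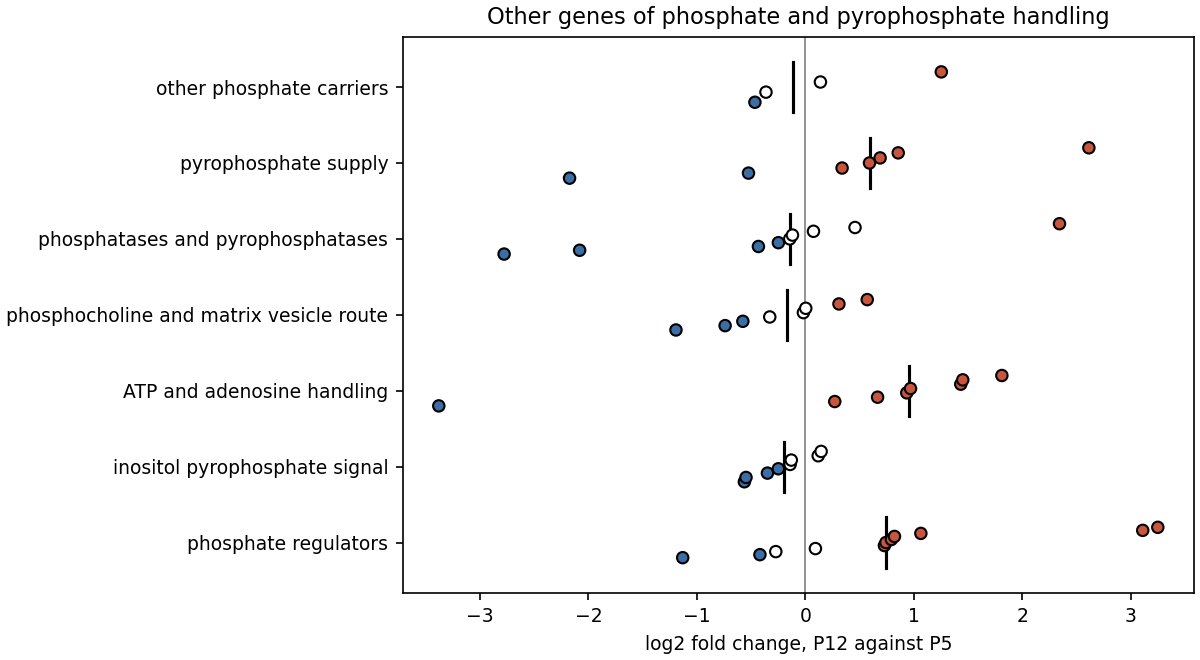
Log2 fold change of P12 over P5 on the horizontal axis for each tested gene of the 7 further lists, 1 row per list, with red for genes called higher, blue for genes called lower, white for genes not called, and a black bar at the list's median. The median is 0.95 for ATP and adenosine handling, 0.74 for phosphate regulators and 0.59 for pyrophosphate supply, and between -0.19 and -0.11 for the other lists.

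In the list of PPi supply, 5 of 7 tested genes were higher and 2 were lower, the latter 1 with total count scaling. Panx3, a pannexin through which ATP can leave cells, gave 278, 250.4, 309.8 and 185 normalized counts at P5, against 1385, 1401, 1606 and 1847 at P12. No library of one age reached the other, and the log2 fold change was 2.61 (SE 0.15, adjusted p = 8.6e-08 by edgeR). Enpp4 and Enpp5, of the same family as Enpp1, were higher with log2 fold changes of 0.69 and 0.59. Enpp2, the family member known as autotaxin, which makes lysophosphatidic acid, was lower, with means of 7549.9 ± 557 and 1676 ± 646 and a log2 fold change of -2.17 (adjusted p = 8.6e-06 by edgeR).

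In the list of ATP and adenosine handling, 7 of 8 genes were higher and 1 was lower. Nt5e, the ectonucleotidase that turns AMP into adenosine and Pi, was higher by 1.45 log2 units (adjusted p = 2.8e-06). Entpd1 had 0.93 (adjusted p = 4.9e-06) and the nucleoside carrier Slc29a1 0.97 (adjusted p = 4.3e-05, all by edgeR). Entpd3, which hydrolyses extracellular ATP, was the lower one and had means of 7363 ± 338 and 706 ± 201, and its log2 fold change was -3.38 (adjusted p = 4.6e-08 by edgeR). Entpd1 is also expressed by endothelium and macrophages, whose markers were higher at P12 as given above.

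Among the other phosphatases and pyrophosphatases, 1 of 9 tested genes was higher and 4 were lower, a balance that turned to 5 higher and 2 lower with total count scaling. Acp4, an acid phosphatase in which variants are known to cause enamel hypoplasia, gave 18639, 18254, 19898 and 19986 normalized counts at P5, against 3477, 4128, 4609 and 5944 at P12. It was lower in every P12 library, with a log2 fold change of -2.08 (SE 0.14, adjusted p = 3.7e-07 by edgeR). The acid phosphatase gene Acpp had -2.78 (adjusted p = 1.2e-09) and Acp6 -0.43 (adjusted p = 2.3e-04), the latter not called with total count scaling. Acp5, the tartrate-resistant phosphatase of osteoclasts, was higher with 2.34 (adjusted p = 2.5e-05 by edgeR), as were the 4 osteoclast markers that were tested. The count of higher genes was 2 without P5 library 5.

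In the phosphocholine and matrix vesicle list, 2 of 8 tested genes were higher and 3 were lower, against 4 higher and 2 lower with total count scaling. Smpd3, a neutral sphingomyelinase that releases phosphocholine, was lower with a log2 fold change of -1.19 (adjusted p = 8.6e-06), and so were choline kinase Chka with -0.58 (adjusted p = 6.1e-04) and the annexin Anxa6 with -0.74 (adjusted p = 5.3e-06 by edgeR). Anxa2 was higher with 0.57 (adjusted p = 3.8e-04). Chka was not called with total count scaling. The count of higher genes was 1 when P5 library 1 or 3 or P12 library 2 or 3 was left out. It was also 1 over the 6 libraries that share a replicate number, with that number as a block and without it.

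Among the other phosphate carriers, 4 of 9 listed genes were tested, 1 of them higher and 1 lower, and 2 were higher with total count scaling. Slc37a2, a sugar phosphate and Pi exchanger, was higher with a log2 fold change of 1.25 (adjusted p = 0.0015 by edgeR), although its groups overlapped, with 161 in P5 library 4 and 157 in P12 library 4. Slc37a4, the glucose 6-phosphate carrier of the endoplasmic reticulum, was lower with -0.46 (adjusted p = 3.9e-04), a call lost with total count scaling. The mitochondrial Pi carrier Slc25a3 had 0.14 (adjusted p = 0.19) and Slc37a1 -0.36 (adjusted p = 0.14 by edgeR). Slc17a2, Slc17a3 and Slc17a4 had no counts in any library.

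Of the phosphate regulators, 7 of 11 tested genes were higher and 2 were lower. Stc1, encoding stanniocalcin-1, gave 64.3, 40.2, 52.7 and 64.6 normalized counts at P5, against 463, 440.5, 522 and 494 at P12. Stc2 went from 65.9 ± 16.6 to 629 ± 102 (SD, n = 4). Both stanniocalcin genes were higher in every P12 library, with log2 fold changes of 3.11 (adjusted p = 1.6e-08) and 3.25 (adjusted p = 6.2e-08 by edgeR). Vdr, the vitamin D receptor, was higher with 1.06 (adjusted p = 1.6e-05). Fam20c, the secretory pathway kinase that phosphorylates matrix proteins, was lower with -1.13, from 6255 ± 86.2 to 2858 ± 188 (adjusted p = 9.2e-08 by edgeR). The count of lower genes was 1 when P12 library 1 or 3 or P5 library 3, 4 or 5 was left out. It was also 1 with total count scaling and with scaling without the 20 most abundant genes.

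P12 library 4 held the highest P12 value for 6 of the 7 tested members, against 33.4% of all genes tested. Leaving it out changed none of the 5 calls. The SD of the normalized counts at P12 was larger than that at P5 for all 7 genes, as was the mean. An SD of counts tends to grow with the mean, so for the 5 genes called higher the SD alone does not give relative spread. The means of the SLC20 genes differed little between the ages, and their P12 libraries were more spread. For Slc20a1 the SD was 65.7 at P5 and 421 at P12, on means of 1620.3 and 1809. For Slc20a2 it was 597 and 1570.0, on means of 8512 and 8693. The cause of this spread was not tested.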

How the data were processed

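RNA-seq was performed by the authors on first molar enamel organs, 4 pools of 5 pups at each age. The authors deposited whole-number read counts per gene without normalization, with gene names, coordinates and lengths. The submitters' processing notes name CASAVA and mm39, whereas 53548 of the 54532 gene IDs have the coordinates of GENCODE M21 (GRCm38), which is the build used here. The aligner, the counting program and its use of strand are not given in the sources used here. Every column was assigned by its name, the title of the sample in the labels. None of the 12 pairs of libraries of an age was close enough in its counts to be a duplicate (chi-square over its degrees of freedom 5.11 to 83.42).

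The test of the counts was the quasi-likelihood test of edgeR 4.0.16 under R 4.3.3, after filterByExpr and TMM and without covariates, and p-values were adjusted by Benjamini-Hochberg over 16440 genes (threshold 0.05). Normalized counts are scaled to the mean effective library size of 19006280, SEs are those implied by the F statistic, and intervals are at 95%. Ratios used a pseudocount of 1 and, like shares, exact permutation of the 8 libraries over all 70 splits, two-sided (smallest p 0.0286), with adjustment over 6 ratios and 3 shares. The edgeR, DESeq2 and limma-voom fits were also tried on simulated counts, with means and dispersions taken from the main fit. Alternatives were DESeq2 1.42.0 (the tool of the study's methods), limma-voom (limma 3.58.1), DESeq2 size factors, total count scaling, scaling without the 20 most abundant genes, other filters (none, or at least 10 counts in every library), stricter thresholds (adjusted p under 0.01, or a change of 1 log2 unit or more), a pseudocount of 0.5, counts with another length or none, each library left out, P5 library 5 and P12 library 4 left out together, and the replicate number as a block.

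The members and lists were chosen with earlier results of these data known. Named in the text are all members, Ank, Slc34a3, up to 4 tested genes with the smallest adjusted p in each other list, and the 3 nearest profiles of each member among protein-coding genes with a mean normalized count of at least 100. Further genes with few counts, and genes that share exonic bases with a member, were named after their values were seen. Acp4 was listed under its synonym Acpt. Promoters are from RefSeq (GRCm38.p6). Plots were drawn with matplotlib 3.10.9, and exact tests used scipy 1.17.1. Staining, blots and cell cultures are not analysed here.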

Additional observations from a re-analysis of the deposited data

Results flagged for a closer look

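In 4 of the 94 groups of 4 libraries examined, the highest or lowest library lay farther from the others than Dixon's 95% critical value allows, where chance gives about 4.7. Slc34a1 had 1.06 normalized counts in P5 library 5, a single read, and 0 in the other P5 libraries. The same gene had 11.0 in P12 library 2 against 1.47 to 2.78 in the other P12 libraries. Slc37a2 had 161 in P5 library 4 against 82.7 to 91.3 in the other P5 libraries. Enpp5 had 671 in P5 library 1 against 558 to 575 in the others.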

How the results depend on the processing

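Slc34a2, Xpr1, Enpp1 and Alpl were called higher under the 18 alternatives that refit the data at the threshold of 0.05, with log2 fold changes of 5.27 to 6.25, 1.38 to 2.07, 1.77 to 2.35 and 0.50 to 1.01. With each library left out in turn, these were 5.58 to 6.14, 1.42 to 1.85, 1.84 to 2.07 and 0.50 to 0.72, Phospho1 had 0.94 to 1.35, Slc20a1 -0.01 to 0.24 and Slc20a2 -0.08 to 0.11. Both SLC20 genes thus changed sign in some of these fits without a call, Slc20a1 to -0.011 without P12 library 4, and Slc20a2 to -0.010, -0.079 and -0.021 without P12 library 3, P12 library 4 or P5 library 3, and to -0.040 without P5 library 5 and P12 library 4 together. With total count scaling Slc20a1 was called at 0.52 and Slc20a2 at 0.40, Slc25a3 was called at 0.51, Slc37a1, Ip6k1 and Ppip5k1 turned to 0.011, 0.12 and 0.020, the calls of Slc37a4, Acp6, Chka, Nudt11 and Ank were lost (-0.094, -0.058, -0.20, -0.17 and -0.15), and 8885 genes were higher and 2330 lower. The median of all genes was 0.38 under that scaling. A fold change of at least 1 log2 unit left 1864 genes higher and 1677 lower, and of the members 4, without Alpl, whereas all 5 passed an adjusted p under 0.01.

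The replicate numbers of the labels did not pair the libraries: deviations from the age means of the 3 same-numbered pairs had correlations of 0.04, 0.01 and -0.04. With the replicate number as a block over these 6 libraries, 7710 genes were called, against 8117 in the same libraries without it. In the block fit Phospho1 had 1.17 (adjusted p = 0.050 by edgeR) and Ppip5k1 -0.27 (adjusted p = 0.060) and neither was called, so that 4 of the members were called, and the list of ATP and adenosine handling had 4 genes higher. The cause was not tested. The blocked differences of the log2 ratios kept their directions, with 5.49 for Slc34a2 to Slc20a2 and 2.48 for Enpp1 to Ank, but 3 pairs cannot give an exact p under 0.25, and 3 against 3 libraries none under 0.1, so that these were read as values only. Depth limits Slc34a1, Slc34a3 and Phospho1.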

Other observations

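Several listed genes had too few counts to be tested. Abcc6, the transporter whose loss lowers circulating PPi, had 0 to 2.24 normalized counts in the P5 libraries and 7.03 to 16.9 in the P12 libraries. Mepe, an extracellular matrix phosphoglycoprotein gene, had 1.32 to 7.71 at P5 and 8.03 to 59.1 at P12, highest in library 2. For both genes all P12 libraries lay above all P5 libraries, which was so for 26.0% of the genes that were tested. For Mepe the nearest libraries of the 2 ages held 6 and 8 counts, a gap within counting error. Akp3, an intestinal alkaline phosphatase, had 3.95 to 15.4 at P5 and 0 to 4.02 at P12. The hormone gene Fgf23 and its coreceptor Kl had at most 3.38 and 3.86 normalized counts in any library, and Alppl2 and Alpi, further alkaline phosphatase genes, had none.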
